A study of Arabidopsis thaliana with 3 samples.

Results

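The autophagy-related genes named ATG in the gene table were measured in shoots of Arabidopsis thaliana from wild-type Col plants and from the flp-1/myb88 double mutant. A gene was taken where a probe set was annotated to that gene alone and its symbol began with ATG and a digit. This gave 8 genes among the 13356 that a probe set of 1 gene named, and each of the 8 had 1 probe set. They are ATG3 (AT5G61500), ATG8B (AT4G04620), ATG8C (AT1G62040), ATG8D (AT2G05630), ATG8E (AT2G45170), ATG8F (AT4G16520), ATG8G (AT3G60640) and ATG8H (AT3G06420). A further 3 autophagy genes were measured under other table symbols, and they are described beside the 8 but not counted with them. These are ATG8A (AT4G21980, listed as APG8A), ATG8I (AT3G15580, listed as APG8H) and ATG101 (AT5G66930, listed by its locus), so 9 ATG8 genes were measured in all.

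Plants of both genotypes were grown in constant light at 22 °C, and whole shoots were taken at 10 days. Col was hybridised to 2 arrays, called replicates 1 and 2, and the mutant, which carries the flp-1 and myb88 alleles together, to 1. FLP and MYB88 are related MYB transcription factors that restrict division late in the stomatal lineage, and the design asks which transcripts are affected when both are mutated. The labels do not say if the Col arrays hold RNA of separate plants, so p-values here reflect only the spread between them, possibly a technical one. That spread is mostly pooled over all probe sets, so the standard errors below depend little on a gene's own Col values. The lone mutant array is assumed to vary as Col does. Of the named probe sets 0 belong to FLP or MYB88, so the genotype label could not be checked.

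Autophagy carries cytoplasm and organelles to the vacuole inside double-membrane vesicles, the autophagosomes, and lets plants recycle nutrients in starvation and in ageing leaves. Its central step attaches the small ubiquitin-like protein ATG8 to the membrane lipid phosphatidylethanolamine. ATG4 proteases trim ATG8 to a terminal glycine, ATG7 activates it, and ATG3 is the conjugating enzyme that passes it to the lipid, helped by the ATG12-ATG5 conjugate. On the membrane, ATG8 recruits cargo receptors. Plants have an ATG8 gene family where yeast has a single gene. Its members fall by sequence into ATG8A to ATG8D, ATG8E to ATG8G, and ATG8H with ATG8I, and the proteins of the last group already end at the glycine.

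The mutant array stood apart from both Col arrays across the whole table. Of 22746 probe sets, 26.3% passed limma's test at a Benjamini-Hochberg adjusted p under 0.05, with 11.9% higher and 14.4% lower in the mutant. The median intensity was 64.2 for the mutant, against 68.7 and 69.7 for Col. A sign of RNA quality moved with the mutant. In 6 of 6 control pairs the 3′ probe set exceeded its 5′ partner by more than on either Col array. The further gap was 0.09 to 1.70 log2 units. Bacterial poly-A controls, used below as a background level, were also brighter on the mutant array, with a median of 3.47 log2 against 3.10 and 3.04. The part of either in the values below was not tested.

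None of the 8 ATG genes passed the test in either direction (0 higher and 0 lower), beside the 26.3% of all probe sets that did. At an unadjusted p under 0.05, limma counted 1 of the 8, ATG8C, beside 39.7% of all probe sets. No ATG gene lay 1 log2 unit (2-fold) or more outside both Col arrays, where 5.13% of all probe sets lay that far above and 9.67% that far below. The log2 differences of the mutant from the Col mean ran from -0.24 for ATG8D to 0.71 for ATG8C, and the median of the 8 was -0.04 beside 0.10 over all probe sets. In size regardless of sign, the median difference of the 8 was 0.19 log2 units, beside 0.53 over all probe sets and 0.57 over the 10579 whose mean lay between those of ATG8G and ATG8F, the ends of the ATG range.

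**Figure D1:**
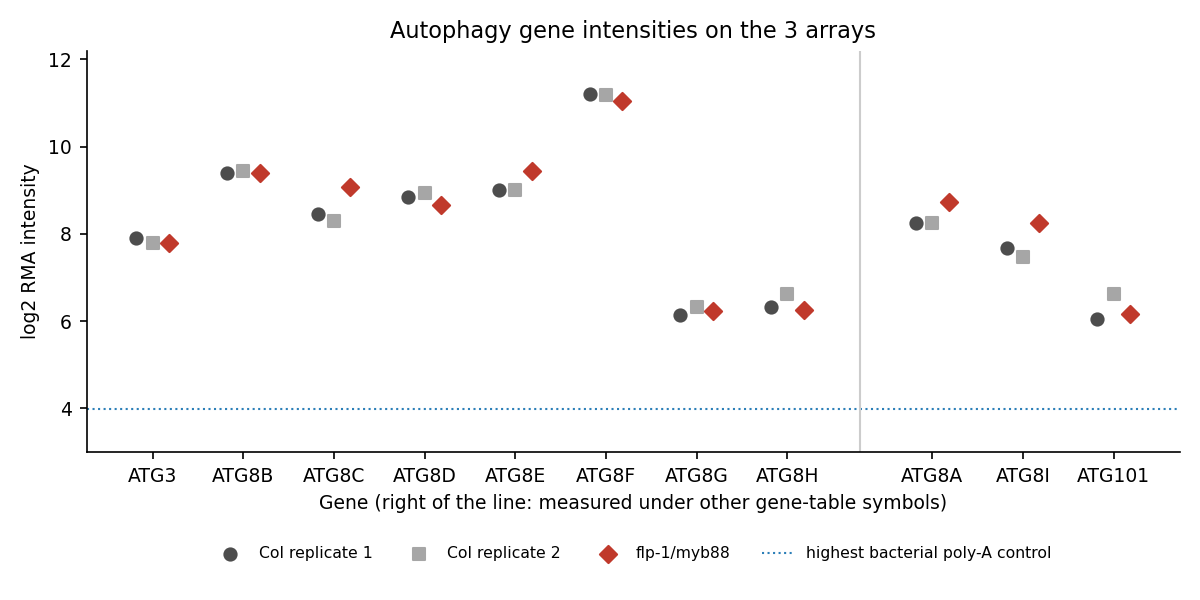
Each point is the log2 RMA intensity of a gene's probe set on one array, with Col replicates as circles and squares and flp-1/myb88 as diamonds, and the dotted line is the highest bacterial poly-A control on any array (3.998). The mutant diamond sits clearly above both Col points at ATG8C, ATG8E, ATG8A and ATG8I and near them at the other genes, and heights of different genes also depend on their probes.

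ATG3, the conjugating enzyme, had nearly the same value on all arrays. Col replicate 1 read 7.91 log2 units, replicate 2 read 7.80 and the mutant 7.79, a difference of -0.06 ± 0.30 (SE; limma adjusted p = 0.906). The mutant lay below the lower Col array by less than 0.01 log2 units, against 0.11 between the Col arrays. The 95% interval of the difference, unadjusted for the number of probe sets, ran from -0.70 to 0.59. In the gene table ATG3 overlaps both neighbouring genes, AT5G61490 and AT5G61510, so a signal from transcripts of these cannot be told apart where the probes lie in the overlap.

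ATG8C had the largest difference of the 8. In log2 units Col read 8.45 and 8.30 and the mutant 9.08, or 351 and 315 against 542 as intensities. The mutant value lay 0.63 log2 units above the higher Col array, while the Col arrays were 0.15 apart. The difference was 0.71 ± 0.30 log2 (SE), or 1.63-fold with an unadjusted 95% interval of 1.04 to 2.56, and it missed the threshold (limma unadjusted p = 0.0349, adjusted p = 0.0976). Over the alternatives with a test, its adjusted p ran from 0.0464, with an intensity trend in limma, to 0.286, after cyclic loess. It was past the threshold under the intensity trend alone.

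The other genes of that sequence group did not follow one direction. The mutant value of ATG8B, 9.40, lay between the Col values of 9.39 and 9.44 (difference -0.02, 95% interval -0.66 to 0.63). At ATG8D the mutant read 8.65 against 8.84 and 8.95 in Col, 0.19 log2 units below the lower Col array, with a difference of -0.24 ± 0.30 (limma adjusted p = 0.584). ATG8A, under its other symbol, read 8.73 in the mutant against 8.25 and 8.24 in Col, and its difference of 0.49 ± 0.30 also missed the threshold (limma adjusted p = 0.244). Across ATG8A to ATG8D the mutant was thus above both Col arrays at 2 genes, below at 1 and between them at 1. ATG8A overlaps the neighbouring gene AT4G21990 in the gene table.

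In the ATG8E to ATG8G group, ATG8E was the one above both Col arrays. Its intensity was almost equal on the Col arrays, at 515 and 512, and 697 in the mutant, a log2 difference of 0.44 ± 0.30 (limma adjusted p = 0.294), or 1.36-fold with an interval of 0.87 to 2.12. ATG8F had intensities of 2357 and 2339 in Col against 2109 in the mutant. On the log2 scale these are 11.20, 11.19 and 11.04, a difference of -0.15 ± 0.30 (limma adjusted p = 0.738). The mutant was below both Col arrays at ATG8F by 0.15 log2 units, more than the 0.01 between the Col arrays. ATG8G read 6.24 in the mutant against 6.14 and 6.33 in Col, so the mutant lay between the Col arrays (difference 0.01, 95% interval -0.64 to 0.66).

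The genes whose proteins already end at the glycine lay on opposite sides of Col, and neither passed the test. ATG8H read 6.25 in the mutant against 6.33 and 6.63 in Col, a difference of -0.23 ± 0.31 (limma adjusted p = 0.609). Its Col arrays were 0.30 log2 units apart, the widest Col gap among the 8, and the mutant lay only 0.08 below the lower of them. ATG8I read 8.25 in the mutant against 7.69 and 7.46 in Col, a difference of 0.67 ± 0.30 (limma unadjusted p = 0.0440, adjusted p = 0.115). ATG8I overlaps AT3G15578 in the gene table. ATG101, a partner of the ATG1 kinase complex that starts autophagosome formation, read 6.18 in the mutant against 6.04 and 6.61 in Col. Its Col arrays were 0.57 log2 units apart and the mutant lay between them.

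**Figure D2:**
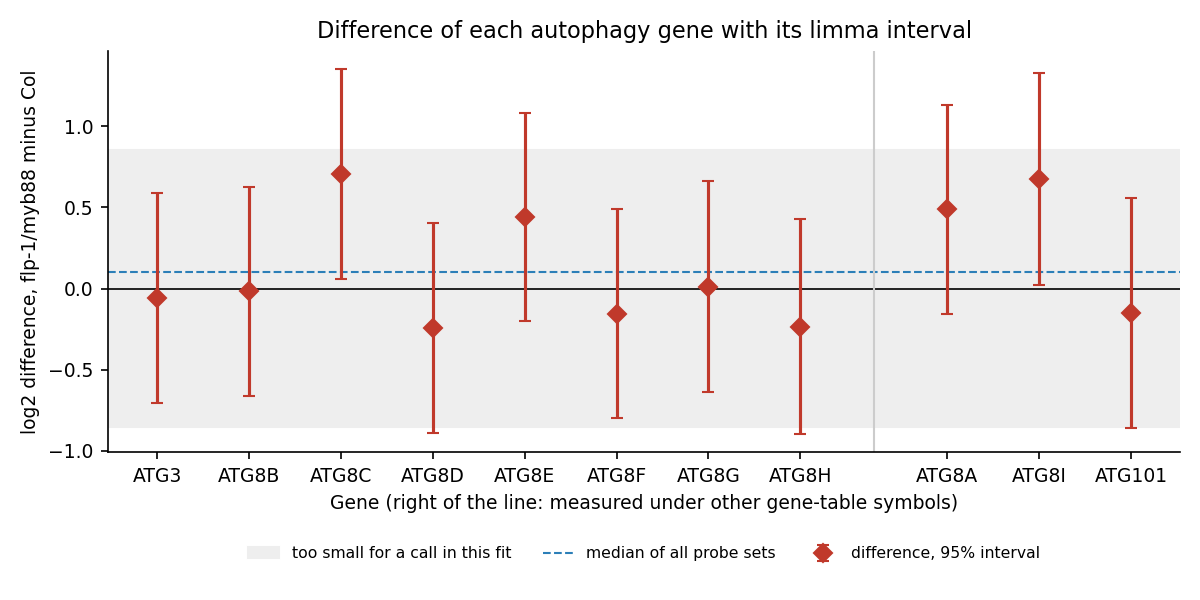
Each diamond is the log2 difference of flp-1/myb88 from the Col mean with limma's unadjusted 95% interval, the grey band marks sizes too small for a call in this fit, under 0.85 log2 units, and the dashed line is the median of all probe sets (0.10). Every diamond lies inside the band, and the intervals of ATG8C and ATG8I leave out 0.

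These intervals set what the arrays could show. The standard errors of the 8 differences ran from 0.30 to 0.31 log2 units, and a difference of 0.85 to 0.88 log2 units, or 1.81-fold to 1.84-fold, would have been needed for a call in this fit. At 6 of the 8 genes the interval lay within a 2-fold change either way. At ATG8C and ATG8E it reached above 2-fold, to 2.56-fold and 2.12-fold. The size needed depends on the variance model as well as on the number of arrays, since ATG8C passed at 0.71 with an intensity trend. Missing the threshold does not show that a level was equal in both genotypes. In whole shoots, a change in the number of cells that express a gene and a change in transcript per cell cannot be told apart.

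By position alone, the mutant value lay above both Col arrays at 2 of the 8 genes (ATG8C and ATG8E), below both at 4 (ATG3, ATG8D, ATG8F and ATG8H) and between them at 2 (ATG8B and ATG8G). Over all probe sets the mutant was outside the Col pair at 86.7%, above both at 49.2%, below both at 37.4% and between at 13.3%. These counts depend on the scaling: after median centring 4 ATG genes were above and 2 below. Against Col replicate 1 alone, without replicate 2, 4 were above and 4 below, and against replicate 2 alone 2 were above and 6 below. All 8 probe sets were brighter than the bacterial controls, since the lowest ATG value on any array was 6.14 log2 and the highest poly-A control was 3.998.

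The ATG genes also varied little between the Col arrays. The median gap between Col replicates, regardless of sign, was 0.11 log2 units for the 8 and 0.25 over all probe sets. No set of like intensity was used for this gap, so the part of brightness in it was not tested. Across the table the arrays tended to be ordered, with Col replicate 1 between replicate 2 and the mutant at 58.0% of probe sets. Of the 8 ATG genes, 4 (50.0%) had this order, ATG8C and ATG8E with the mutant highest and ATG8D and ATG8H with it lowest. At ATG8E the Col values that set the order differed by only 0.01 log2 units.

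**Figure D3:**
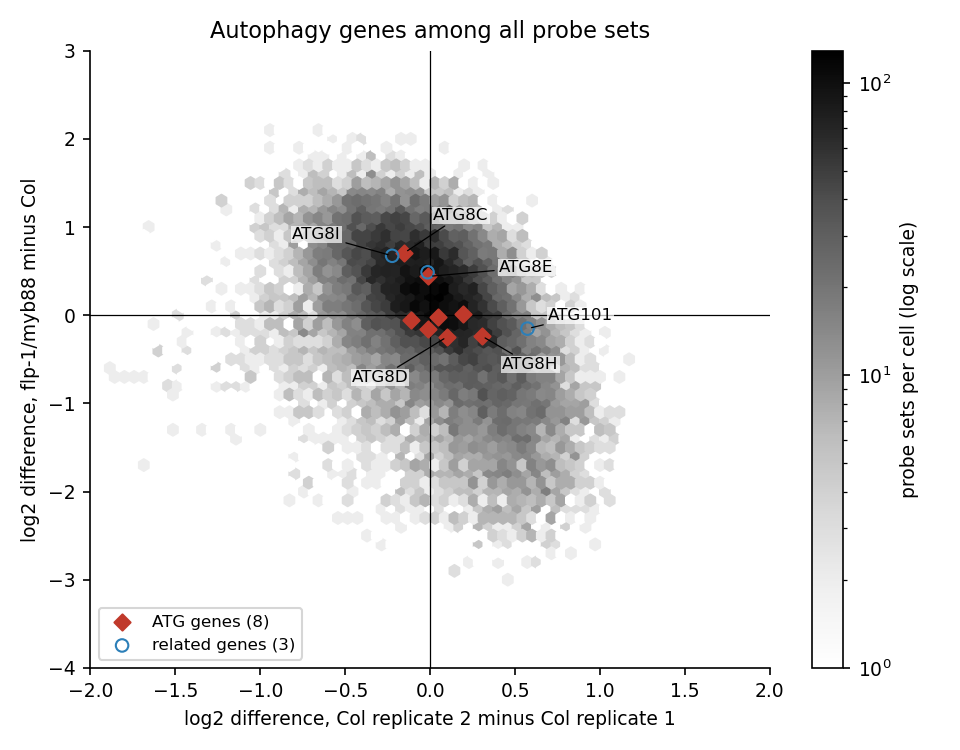
Each grey cell counts probe sets by the log2 difference between the Col replicates (horizontal) and that between flp-1/myb88 and Col (vertical), with the 8 ATG genes as red diamonds and ATG8A, ATG8I and ATG101 as blue circles. The ATG genes lie within 0.30 log2 units of 0 on the horizontal axis and between -0.24 and 0.71 on the vertical axis, and probe sets beyond the axes are not drawn.

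Differences among the ATG genes can also be read as the log2 ratio of 2 of their probe sets within an array. A constant shift between arrays cancels in such a ratio, while scaling that depends on intensity does not. The zero of such a ratio depends on the probes, so only its difference between arrays is given. Of the 28 pairs among the 8 genes, the one whose mutant ratio lay furthest outside both Col ratios, picked after its values were seen, was ATG8C over ATG8D, at 0.43 in the mutant against -0.39 and -0.65 in Col. ATG8E over ATG8F, also picked after its values were seen, read -2.19 on each Col array and -1.60 in the mutant. Other pairs lay further outside the Col ratios than this pair did. Lying outside was common, at 22 of the 28 pairs. These ratios are values with no test, and ratios of other probe sets were not set beside them.

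**Figure D4:**
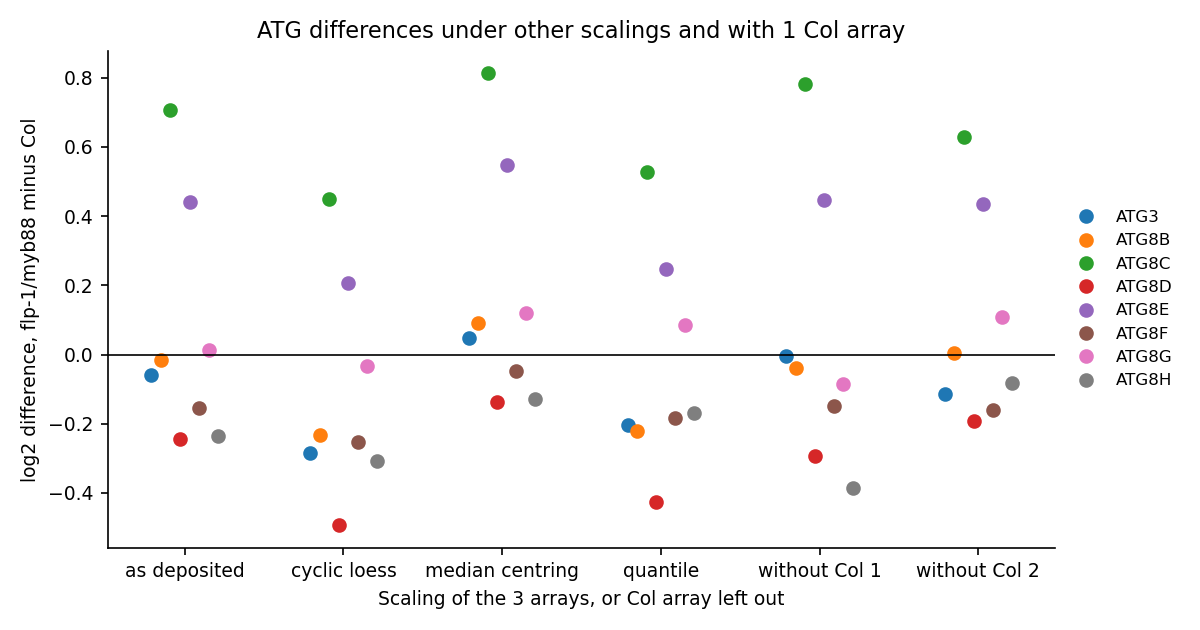
Each point is the log2 difference of flp-1/myb88 from Col for one of the 8 ATG genes, as deposited, after 3 other scalings of the arrays, and with either Col array left out. ATG8C and ATG8E stay above 0 and ATG8D, ATG8F and ATG8H below 0 in all 6 columns, while ATG3, ATG8B and ATG8G change side.

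The ATG differences shifted with the scaling of the arrays. The difference over all probe sets had a median of 0.10 as deposited, 0.21 after median centring and 0.01 after cyclic loess, and the median of the 8 ATG genes was -0.04, 0.07 and -0.24. Relative to the median of all probe sets, the ATG median was -0.14 as deposited, which median centring cannot alter because it adds a constant to every difference, -0.25 after cyclic loess and -0.27 after quantile normalization. ATG8C remained the highest of the 8 under each, at 0.45 after cyclic loess, 0.81 after median centring and 0.53 after quantile normalization. ATG8D was lowest under each of these, at -0.49, -0.14 and -0.43.

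The profile most like that of ATG8C over the 3 arrays, with each value taken relative to the Col mean, belonged to AT5G32540, followed by AT4G33420 and AT1G72840. Their mutant differences were 0.71, 0.71 and 0.70 log2 units, but AT5G32540 read 3.87 and 3.72 in Col, under the brightest poly-A control of any array, so its level was not shown to be above background. The Euclidean distances of these genes from ATG8C were 0.002, 0.005 and 0.008 log2 units. Within a wider distance of 0.1 log2 units lay 335 of 13505 single-gene probe sets, so with 3 arrays many other profiles were near it too.

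Of the partners of autophagy on the list, which holds kinase complexes upstream, cargo receptors and membrane tethers, 3 of 30 were measured and none passed the test. Measured means, for this and the other lists, that a probe set was annotated to the gene alone. Other list genes may lie among the probe sets annotated to several genes or to none. EXO84B, a subunit of the exocyst tether, read 7.39 in the mutant against 6.68 and 6.54 in Col, a difference of 0.78 ± 0.30 (limma adjusted p = 0.0688). It passed after median centring, at 0.89 (limma adjusted p = 0.0482), and with dim probe sets filtered out (the dim filter), and over all alternatives its adjusted p in limma ran from 0.0475 to 0.132. RAPTOR1 and RAPTOR2, which encode partners of the TOR kinase that restrains autophagy, differed by 0.23 and 0.60 log2 units. RAPTOR2 read 4.17 and 4.01 in Col, close to the brightest poly-A control (3.998). Over the alternatives of the limma fit the RAPTOR2 difference ran from 0.34 to 0.75. All 3 genes lay above both Col arrays, as 49.2% of all probe sets did.

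Vacuolar proteases, which act where autophagosomes deliver their cargo, had 5 of 24 list genes measured, with 1 lower and 0 higher. Over all probe sets 14.4% were lower and 11.9% higher. BETA-VPE, a vacuolar processing enzyme best known from seeds, fell by 0.91 ± 0.31 log2 (limma adjusted p = 0.0468), to 6.77 from 7.49 and 7.86 in Col. The call was lost after median centring, at -0.80, after quantile normalization and with a pseudocount of 16, and over the alternatives its adjusted p in limma ran from 0.0194 to 0.0757. ALPHA-VPE differed by -0.72 and GAMMA-VPE, the main enzyme of this family in leaves, by 0.13, neither past the threshold, and the carboxypeptidase-like gene SCPL49 by 0.69.

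Leaf senescence genes, known to come on early in autophagy mutants, had 7 of 30 measured and none passed. WRKY22, a transcription factor of senescence and defence, came nearest at -0.90 ± 0.32 (limma adjusted p = 0.0509), from 7.81 and 8.24 in Col to 7.12. It passed with an intensity trend, with the dim filter and after cyclic loess, with adjusted p from 0.0200 to 0.0825 over the alternatives of the limma fit. PPDK, which helps move nitrogen out of ageing leaves, differed by 0.64, NOL, a chlorophyll b reductase, by 0.27 and SAG101 by -0.21. Without Col replicate 2 the median of this list went from 0.12 to -0.24.

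Carbon starvation genes had 6 of 24 measured, with 2 higher and 0 lower, beside 11.9% and 14.4% of all probe sets. IVD, which breaks down leucine and feeds electrons to mitochondria when sugar is short, rose to 10.31 from 9.45 and 9.15 in Col, by 1.01 ± 0.31 log2 (limma adjusted p = 0.0285). D2HGDH, a dehydrogenase that feeds the same electron pathway, rose to 5.89 from 5.06 and 4.75, by 0.98 ± 0.31 (limma adjusted p = 0.0324). AKINBETA1, a subunit of the energy-sensing kinase SnRK1, differed by 0.83 (limma adjusted p = 0.0605) and MCCB, a carboxylase of leucine breakdown, by 0.67 (limma adjusted p = 0.116). Both passed with an intensity trend, AKINBETA1 also with the dim filter and after median centring. Over the alternatives of the limma fit the adjusted p of AKINBETA1 ran from 0.0265 to 0.165 and that of MCCB from 0.0492 to 0.308. IVD lost its call after cyclic loess and after quantile normalization, each at 0.81, and its adjusted p in limma ran from 0.00418 to 0.0862 over the alternatives. D2HGDH lost its call with an intensity trend and with a pseudocount of 16, and its adjusted p ran from 0.0234 to 0.0752 in the same fits. The remaining measured genes of the list differed less, MCCA by 0.25 (limma adjusted p = 0.569) and ETFQO by 0.05 (limma adjusted p = 0.924). At ETFQO the mutant lay between the Col arrays, so the measured genes did not all rise.

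The ESCRT machinery, which sorts membrane proteins into multivesicular bodies and shares the route to the vacuole, had 14 of 30 genes measured, with 1 higher and 1 lower. The shares over all probe sets were 11.9% higher and 14.4% lower. VPS60.2 rose to 5.90 from 4.83 and 4.79 in Col, by 1.09 ± 0.30 log2 (limma adjusted p = 0.0186), and lost its call with a pseudocount of 16, at 0.78, with adjusted p from 0.0120 to 0.0561 over the alternatives. VPS24.2 read 4.81 in the mutant against 7.59 and 8.05 in Col, and fell by 3.01 ± 0.32 log2 (limma adjusted p = 0.000283). ELC and SNF7.2 differed by 0.70 and 0.58 and did not pass. Of the 12 genes not called, VPS2.1 was lowest at -0.40, and VPS24.1 differed by -0.15 (limma adjusted p = 0.751). The 1 measured proteasome gene of 49, RPN12A, differed by 0.55 without passing.

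**Figure D5:**
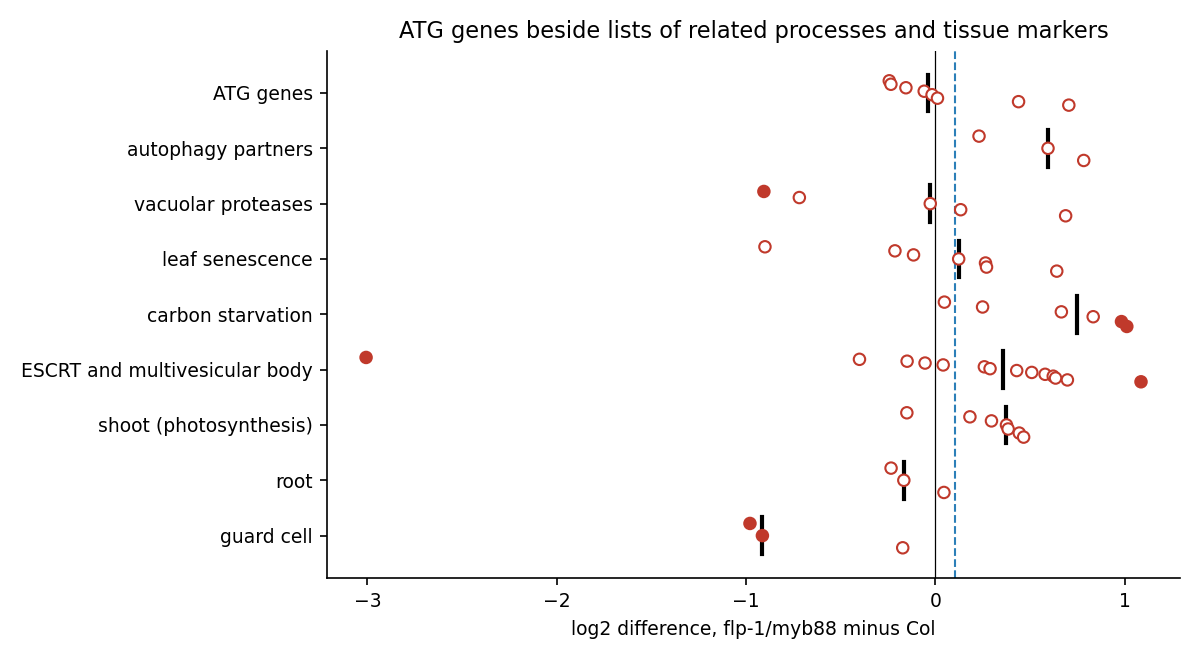
Each circle is the log2 difference of flp-1/myb88 from Col for one gene, filled where it passed limma's threshold, by list, with the list median as a black bar and the median of all probe sets (0.10) as a dashed line. The ATG genes hold no filled circle and span -0.24 to 0.71. The ESCRT list reaches from -3.01 to 1.09, but its low end is VPS24.2 alone, the next lowest gene is at -0.40, and 12 of its 14 circles are open.

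The labelled tissue was set beside marker genes, which do not settle it, since the brightest of them on both Col arrays was a root list gene. The 7 measured photosynthesis genes of 33 read 9.64 log2 or more on both Col arrays, none passed the test, and their summed intensity was 14836 in the mutant against 13038 and 10802 in Col. LHCB4.2, RCA, LHCB4.1 and PSAN differed by 0.38, 0.39, 0.47 and 0.44 log2 units. Of the root list, 3 of 13 were measured, with a sum of 2727 in the mutant against 3267 and 3141 in Col, and none passed. Nearly all of that sum was PYK10, at 11.40 in the mutant against 11.66 and 11.61 in Col. On both Col arrays it read above all 7 photosynthesis genes, the brightest being PSAN on replicate 1 (11.53) and PSAE-1 on replicate 2 (11.24). Levels of different genes also depend on their probes. The root hair genes EXPA7 and EXPA18 read at most 4.54 in Col and differed by -0.17 and 0.05. EXPA18 stayed under the brightest poly-A control on all arrays, so its difference may be one of background alone. EXPA7 was also under that control (3.998) on Col replicate 2, at 3.784, and on the mutant array, at 3.996. Of the guard cell list, 3 of 20 were measured, with a sum of 517 in the mutant against 990 and 888 in Col. Most of that sum was CHX20, at 8.66 in the mutant against 9.67 and 9.47 in Col. The test called 2 of the 3 lower, beside 14.4% of all probe sets. These were BLUS1 (AT4G14480), which fell by 0.98 (limma adjusted p = 0.0293), and CHX20, which fell by 0.91 (limma adjusted p = 0.0404), while FAMA differed by -0.17. Both lost their calls with a pseudocount of 16, BLUS1 also after quantile normalization and CHX20 after median centring. The part of such cell types in the ATG values was not tested.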

How the data were processed

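The deposited values are probe set intensities made by the authors with RMA, per the submitters' processing notes; neither its software nor its settings are given in the sources used here. They were read as linear from their range (6.06 to 7618), and log2 was taken with no pseudocount. Labelled cDNA was amplified from 25 ng of total RNA, per the labels' protocols. Of 22810 probe sets, 64 controls were left out. The platform annotation gave 1 gene for 13513 of the 22746 tested, several for 503 and none for 8730; 13436 matched the TAIR10.1 gene table by gene ID, whose symbols were used, and no coordinates are given since no build is named. Other columns of samples numbered 0.

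All probe sets were fitted with limma 3.58.1 in R 4.3.3 (lmFit, eBayes without trend, two-sided), with Benjamini-Hochberg adjustment over all of them and a threshold of 0.05. The spread came from the 2 Col arrays (1 residual and 12.1 prior degrees of freedom), so their number limits precision. The fit was run on simulated data in which the mutant array varied as the Col arrays did. That assumption was therefore not tested. The members and the 9 other gene lists were chosen with earlier results of these data known. Every ATG gene is named, and of each other list up to 4 genes furthest outside both Col arrays. MCCA, ETFQO, PSAE-1, VPS2.1 and VPS24.1 are named besides these. The 3 genes nearest to the ATG gene with the largest difference are named by Euclidean distance. Alternatives were an intensity trend, a robust fit, removal of probe sets whose mean log2 value was under the median (the dim filter), cyclic loess, median centring, quantile normalization, a pseudocount of 16, the mean of a gene's probe sets, other symbol rules, a 1 log2 unit rule and leaving out either Col array. The scaling and left-out-array counts of genes above or below Col were added after seeing the data.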

Additional observations from a re-analysis of the deposited data

Results flagged for a closer look

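Control probe sets, which enter no comparison, set the mutant array apart. The largest 3′ minus 5′ log2 difference among the control pairs was 5.87 on the mutant array, in the first actin pair, against 5.35 and 5.34 on the Col arrays. Among the bacterial poly-A controls, all 27 were highest on the mutant array, where their median log2 intensity of 3.47 exceeded the 3.10 and 3.04 of Col.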

How the results depend on the processing

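With an intensity trend 1 ATG gene was higher (ATG8C), and under the other alternatives with a test 0 were higher and 0 lower, also with ATG8A, ATG8I and ATG101 included. The ATG median of -0.04 was -0.24 after cyclic loess, 0.0695 after median centring and -0.18 after quantile normalization, and from -0.06 to -0.04 with either Col array left out. After median centring 4 ATG genes lay above both Col arrays and 2 below, ATG3 turned to 0.0487 and ATG8B to 0.0903. After cyclic loess ATG8G turned to -0.0320. Leaving out a Col array gave 2 to 4 ATG genes above the other and 4 to 6 below, and 0 at least 1 log2 unit away. Over all probe sets 1749 were higher after quantile normalization and 1123 with the pseudocount, and 1619 were lower with the pseudocount and 1976 with the dim filter, which tests fewer probe sets, against 2700 higher and 3282 lower. The cause was not tested for the other changes. Among the lists, 1 autophagy partner was higher after median centring and with the dim filter. Lower vacuolar proteases numbered 0 after median centring, quantile normalization and with the pseudocount. Lower senescence genes numbered 1 with the intensity trend, the dim filter and cyclic loess. Higher starvation genes, 2 as reported, numbered 1 after cyclic loess, quantile normalization and with the pseudocount, and 3 with the intensity trend and after median centring. Higher ESCRT genes numbered 0 with the dim filter, which removed VPS60.2 so that it was not tested, and 0 with the pseudocount. Lower guard cell genes numbered 1 after median centring and quantile normalization and 0 with the pseudocount. EXPA18, at 0.05 and with all values under the brightest poly-A control, turned to -0.0594 after cyclic loess and to -0.0145 after quantile normalization. Each ATG gene had 1 probe set, so averaging probe sets changed none of them. No paired analysis was possible because the mutant has 1 array and no replicate number. The deposited summaries limit what can be said of signal over background.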
